A study of Homo sapiens with 4 samples.

Results

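The RNF (RING finger) and TRIM (tripartite motif) genes were taken from a TT-seq table of IWS1 depletion by their symbols, as RNF with a number and an optional A or B, or TRIM with a number. This gave 79 of the 10147 genes in the table, 53 RNF and 26 TRIM genes. The cells were K562, a human chronic myelogenous leukemia line, edited so that the endogenous IWS1 protein carries an N-terminal dTAG. Control and dIWS1 cells share this edit, and the study does not say whether cells of more than 1 clone were used. Control cells received the solvent DMSO and dIWS1 cells received 500 nM dTAG7, the ligand that leads the tagged protein to degradation, for 1 h each. New RNA was labelled with 500 µM 4-thiouridine (4sU) for 5 min, with 2 libraries per group.

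Ubiquitin is passed from an activating enzyme (E1) to a conjugating enzyme (E2) and then, with the help of a ligase (E3), to a target protein. Most RNF and TRIM proteins are E3 ligases that hold the E2 through a zinc-binding RING domain. In TRIM proteins the RING is followed by B-box and coiled-coil domains and by a variable end that often binds the target, and many of them act in innate immunity or at chromatin. RNF proteins share little beyond the RING and act in many places, among them histone modification, DNA repair and the membranes of the secretory pathway. TT-seq counts RNA made during the labelling pulse, so the values below are of transcription of these genes, not of the amounts of the ligases.

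The deposited table holds pooled means, from which whole reads per library column were recovered. The control columns held the same reads and were counted as 1 sample, and the dIWS1 columns, which carry no replicate number, are called column 1 and column 2. Reads divided by the spike-in size factors are called normalised reads. Columns held 28702915 (control), 19905409 and 20134121 reads in 10119 genes with a unique solution, which included all 79 members. Members had 10 to 28379 control reads, and 5 of them had fewer than 100. IWS1 itself had 3649 normalised reads in the control column, 2350 in column 1 and 2640 in column 2, which does not check the depletion because dTAG7 acts on the protein. Of the K562 genes chosen as markers 11 of 12 are in the table, GATA1 and TFRC among them, against 0 of 5 lymphoid and 1 of 4 granulocytic or monocytic markers, LYZ with 59.4 normalised control reads.

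A log2 ratio below compares the dIWS1 columns with the control column (limma voom) and is followed by its standard error (SE). A gene is called lower or higher at an adjusted p under 0.05 over all 10119 genes. The spread behind these tests comes from the dIWS1 columns alone, and the lone control column was assumed to vary like them. limma shares this spread across genes, so an SE is not the gap between a gene's own columns. TRIM41 and RNF19B both had an SE of 0.13, with log2 ratios of column 1 to column 2 of -0.0005 and -0.42. The median gene of the table had a log2 ratio of -0.43, and a second scaling moves this median to 0 to give ratios relative to the median gene. TT-seq of a bulk culture cannot tell fewer cells from less RNA per cell.

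Relative to the median gene, 6 members were called: RNF213, TRIM16 and TRIM66 lower, and RNF19B, RNF125 and TRIM3 higher. Over all genes tested 4.78% were called lower and 2.99% higher in this way. This scaling moves both dIWS1 columns by the same amount. Scaling each column by its own total reads also puts the median gene near 0 (0.0149) and calls more members. It called 4 RNF and 4 TRIM genes lower and 8 and 4 higher, beside 11.1% and 14.9% of all genes. The promoters of 5 of the 6 members named above are in the RefSeq promoter table (GRCh38.p14). The 150 bases before the annotated start are shown here because these genes mark the ends of both families. Capitals mark matches on either strand to short motifs of transcription factors, none of which overlap here. The GC box, bound by the SP family of factors, was searched as GGGCGG. The E-box of MYC-like factors was searched as CACGTG, and the CCAAT box of the NF-Y factor by its name. The core of interferon response elements was searched as the word GAAA repeated after any 2 bases. The order is RNF213 (chr17:80260702-80260851, plus strand), RNF125 (chr18:32018675-32018824, plus), TRIM16 (chr17:15682952-15683101, minus), TRIM66 (chr11:8683232-8683381, minus) and TRIM3 (chr11:6474460-6474609, minus).
RNF213: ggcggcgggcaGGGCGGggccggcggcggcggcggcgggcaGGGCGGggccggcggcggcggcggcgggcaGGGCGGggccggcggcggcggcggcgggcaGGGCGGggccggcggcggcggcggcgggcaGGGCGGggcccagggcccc
RNF125: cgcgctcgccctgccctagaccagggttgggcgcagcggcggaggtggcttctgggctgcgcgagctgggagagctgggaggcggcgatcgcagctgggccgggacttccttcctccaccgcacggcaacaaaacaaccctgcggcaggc
TRIM16: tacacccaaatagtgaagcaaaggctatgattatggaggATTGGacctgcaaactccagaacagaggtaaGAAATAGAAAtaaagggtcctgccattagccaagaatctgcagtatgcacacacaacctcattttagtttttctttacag
TRIM66: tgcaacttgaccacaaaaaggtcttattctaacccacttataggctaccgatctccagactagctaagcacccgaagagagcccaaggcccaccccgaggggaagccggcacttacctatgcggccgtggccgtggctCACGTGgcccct
TRIM3: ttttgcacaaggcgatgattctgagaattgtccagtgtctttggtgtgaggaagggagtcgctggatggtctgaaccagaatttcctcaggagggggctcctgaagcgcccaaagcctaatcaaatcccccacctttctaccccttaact
The RNF213 stretch is a GC-rich repeat with 5 GC boxes, and its 250 bases before the start were 96.4% G or C, while those of TRIM16 were 41.6%. The annotated start used for TRIM16 lies 1.36 kb inside the gene span, so this stretch may be part of the gene rather than a promoter. RNF125 and TRIM3 held none of the motifs in the bases shown. No start sites were measured here.

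Transcription of most RNF genes was lower in dIWS1 cells. Of 53 RNF genes, 36 (67.9%) were called lower, 0 higher and 17 were not called under the spike-in scaling, while scaling by total reads gave 4 lower and 8 higher. Over all genes tested 64.3% were called lower and 0.109% higher under the spike-in scaling, so the share of RNF genes is near that of the table. Scaled by total reads, which puts the median gene near 0 by construction, 11.1% of all genes were called lower and 14.9% higher. No RNF or TRIM gene above 0 had an unadjusted p under 0.05, and limma trend called 1 member higher, RNF225. The median log2 ratio of the RNF genes was -0.39 (quartiles -0.57 and -0.25), with -0.48 in column 1 and -0.33 in column 2. Both dIWS1 columns lay below the control column for 48 RNF genes (71 of the 79 members), against 92.1% of all genes. Column 1 was the lower column for 47 of the 53 RNF genes and 20 of the 26 TRIM genes, as it was for 8010 of the 10119 genes.

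**Figure D1:**
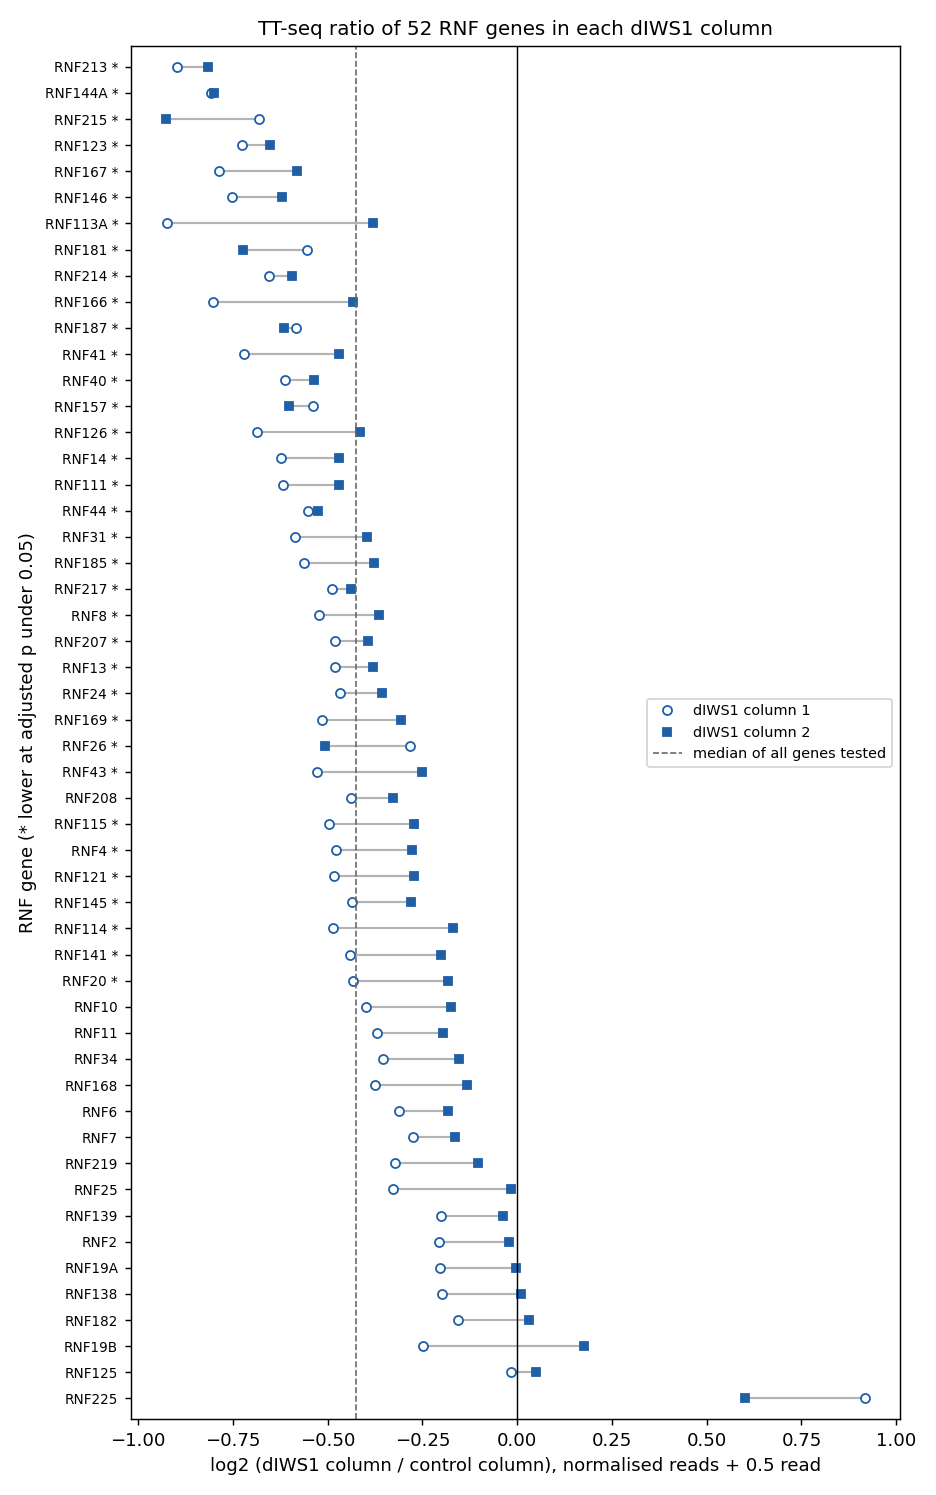
Log2 ratio of each dIWS1 column to the control column (x axis, spike-in scaling, normalised reads plus 0.5 read) for 52 of the 53 RNF genes (y axis), with open circles for column 1, filled squares for column 2 and stars for genes called lower. The ratios run from RNF213 and RNF144A at the top to RNF225, which had 10 control reads, and 47 genes shown have both columns below 0; scaled by total reads, values move up by about 0.44 and 4 genes are lower and 8 higher.

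RNF213, a very large protein that joins a RING to an ATPase motor and whose variants are linked to moyamoya disease, had the lowest ratio of the RNF genes with at least 100 control reads. Its gene (chr17:80260852-80398794, plus strand, 68 exons) had 4376 normalised reads in the control column, 2347 in column 1 and 2486 in column 2. Both dIWS1 columns lay far below the control, at a log2 ratio of -0.86 ± 0.15 (SE, adjusted p = 2.02e-07), and -0.43 ± 0.15 against the median gene (adjusted p = 0.0497). This relative call is at the edge of the threshold and ends with a minimum mean of 10 normalised reads (adjusted p = 0.0503). RNF144A, an RBR ligase, is the longest RNF gene of the table at 159 kb and had 14796 normalised reads in the control column, 8445 in column 1 and 8500 in column 2. The dIWS1 columns were almost equal, and its log2 ratio was -0.80 ± 0.15 (adjusted p = 6.12e-07). RNF123, the catalytic subunit of a complex that degrades the cell cycle inhibitor p27, had 1334 normalised reads against 806 and 848. RNF146, which recognises poly-ADP-ribosylated proteins such as axin, had 1016 against 603 and 661. Both were called lower, with log2 ratios of -0.69 ± 0.14 and -0.69 ± 0.13.

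RNF167, a ligase of endosomes and lysosomes, had 230 normalised reads in the control column, 133 in column 1 and 153 in column 2. RNF181, with a gene of 1.96 kb in 5 exons, had 150 against 102 and 90.3. These lower-count genes were also called lower, at -0.69 ± 0.16 and -0.64 ± 0.18. RNF215 reached -0.80 ± 0.27 and RNF113A -0.66 ± 0.25, but from 59 and 66 control reads, and RNF113A was at -0.38 in column 2 alone.

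At the other end of the family, RNF125, a ligase that marks the RNA sensor RIG-I for degradation, had 648 normalised reads in the control column, 640 in column 1 and 671 in column 2. The dIWS1 columns lay close to the control on either side of it, and the log2 ratio was 0.02 ± 0.13 (adjusted p = 0.905), and 0.44 ± 0.13 against the median gene (adjusted p = 0.0141). RNF19B, an RBR ligase of lytic granules in natural killer cells, had 806 normalised reads against 679 and 910. Its dIWS1 columns disagreed in direction, and its mean ratio of -0.04 ± 0.13 lay above the median gene by 0.39 ± 0.13 (adjusted p = 0.0400). Entering the control column 2 times ended that call, though this copy adds no independent sample. Without column 2 the relative value was 0.18. With limma trend the relative calls of RNF213, RNF19B, RNF125, TRIM66 and TRIM3 were lost and that of TRIM16 was kept. RNF182 (430 against 386 and 439) and RNF19A (4611 against 4002 and 4602) also had column 2 level with the control. RNF225 was the only RNF gene with both dIWS1 columns above the control, with 9.90 normalised reads against 19.1 and 15.2, and it was not called (0.76 ± 0.47, adjusted p = 0.138).

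Among the RNF ligases of chromatin and DNA damage, 9 of 9 are in the table and 6 were called lower (64.3% of all genes), with a median log2 ratio of -0.38 (-0.43 for all genes). RNF20 and RNF40 form the dimer that ubiquitylates a core histone during transcription. RNF40 had 1091 normalised reads in the control column, 713 in column 1 and 753 in column 2, and RNF20 had 612 against 453 and 539. Both were called lower, RNF40 at -0.57 ± 0.13 and RNF20 at -0.31 ± 0.13. Against the median gene they lay at -0.15 ± 0.13 and 0.12 ± 0.13, and neither was called. The RNF20 call was lost with limma trend (adjusted p = 0.0996), and without column 1 its ratio was -0.18. RNF2, the catalytic ligase of Polycomb repressive complexes, had 5782 against 5012 and 5695. Column 2 was close to the control, and RNF2 was not called (-0.11 ± 0.15, adjusted p = 0.486).

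RNF8, which starts the ubiquitin signal at DNA double-strand breaks, had 2264 normalised reads against 1576 and 1759 and was called lower (-0.44 ± 0.14, adjusted p = 0.00526). RNF168, which extends that signal, had 2311 against 1783 and 2107 and was not called (-0.25 ± 0.15, adjusted p = 0.112). RNF169, which reads the same mark, had 5985 against 4187 and 4836 and was called lower (-0.41 ± 0.15). The SUMO-targeted ligases RNF4 (7317 against 5256 and 6035) and RNF111 (14469 against 9428 and 10443) were called lower at -0.38 ± 0.15 and -0.54 ± 0.15, and the call of RNF4 was lost with limma trend (adjusted p = 0.0602). RNF138, which acts in end resection, had 4579 against 3989 and 4613 and was not called (-0.09 ± 0.15).

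RBR ligases pass ubiquitin through a catalytic cysteine of their own after a RING has bound the E2. Of 8 on the list 6 are in the table and 4 were called lower (64.3% of all genes), with a median log2 ratio of -0.48. RNF14 had 1974 normalised reads in the control column, 1282 in column 1 and 1425 in column 2 and a ratio of -0.55 ± 0.14. RNF31, which builds linear ubiquitin chains, had 460 against 306 and 349 and a ratio of -0.49 ± 0.13. RNF217 had 12617 against 8990 and 9306 and a ratio of -0.46 ± 0.15. These 3 and RNF144A had both dIWS1 columns below the control by more than their SE, while RNF19A and RNF19B were not called, so the RBR genes held members from both ends of the family.

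Of 18 RNF ligases with membrane-spanning segments, 9 are in the table and 8 were called lower, where 64.3% of all genes were, with a median log2 ratio of -0.39. Their ratios ran from RNF167 at -0.69 to RNF139 at -0.12 ± 0.14, the sterol-responsive ligase of the endoplasmic reticulum, which was not called. RNF13 (149 kb long) had 4023 normalised reads against 2883 and 3089, at -0.43 ± 0.15. RNF24 had 11881 against 8586 and 9284, at -0.41 ± 0.15, and its call was lost with limma trend (adjusted p = 0.0578). Per kb of gene span RNF4, RNF10 and RNF24 were the most transcribed RNF genes, at 157, 138 and 135 normalised control reads per kb. RNF10 had 5980 normalised reads against 4534 and 5295 and was not called (-0.29 ± 0.15, adjusted p = 0.0786).

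Most TRIM genes were called lower, as were most genes of the table. Of 26 TRIM genes, 15 (57.7%) were called lower, 0 higher and 11 were not called under the spike-in scaling, while scaling by total reads gave 4 lower and 4 higher. The share called lower was below the 64.3% of all genes, and with total reads 11.1% of all genes were lower and 14.9% higher. The 4 lower genes were then TRIM16, TRIM66, TRIM41 and TRIM44, and the 4 higher genes were TRIM3, TRIM26, TRIM35 and TRIM59. The median log2 ratio was -0.40 (quartiles -0.60 and -0.17), with -0.41 in column 1 and -0.33 in column 2. Both dIWS1 columns lay below the control for 23 TRIM genes. TRIM68 was the only TRIM gene with both above it, with 88.2 normalised control reads against 101 and 95.7, and it was not called (0.16 ± 0.21).

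**Figure D2:**
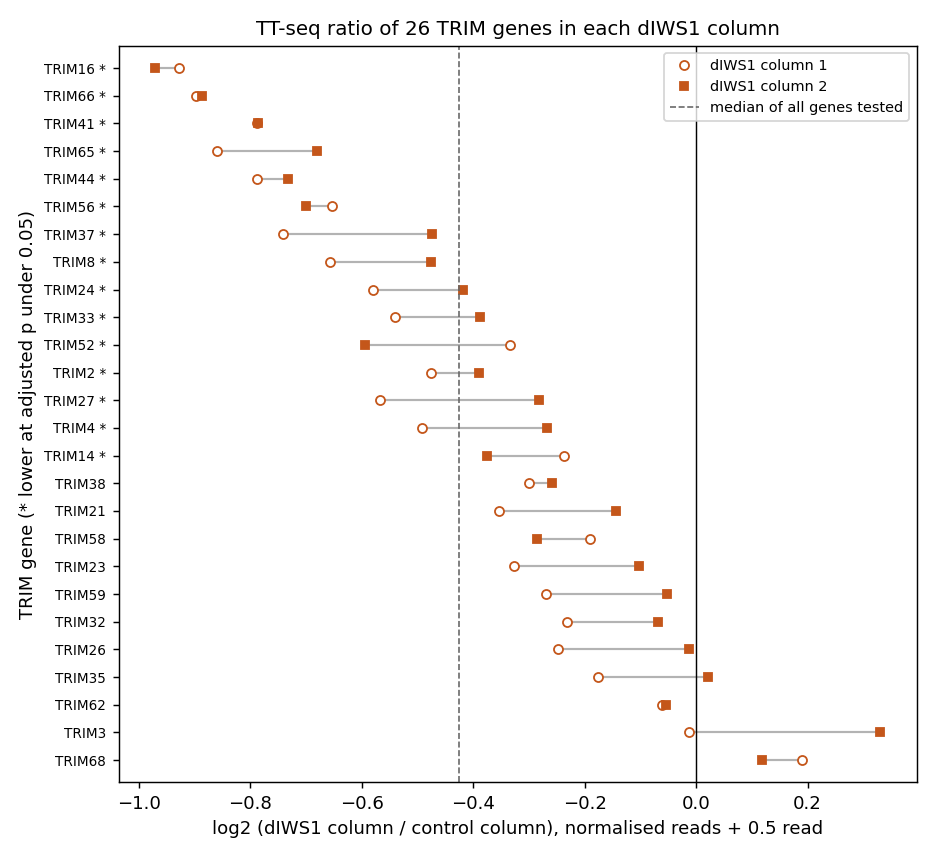
Log2 ratio of each dIWS1 column to the control column (x axis, spike-in scaling, normalised reads plus 0.5 read) for the 26 TRIM genes (y axis), with open circles for column 1, filled squares for column 2 and stars for genes called lower. The 6 lowest genes have both columns below -0.65 and the 15 called genes fill the upper part, and only TRIM68 has both columns above 0; scaled by total reads, values move up by about 0.44 and 4 genes are lower and 4 higher.

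TRIM16, which lacks a RING and acts in the clearance of damaged membranes by autophagy, had the lowest ratio of all 79 members. The gene (chr17:15627966-15684311, minus strand, 12 exons) had 908 normalised reads in the control column, 477 in column 1 and 463 in column 2. Both dIWS1 columns held about the same and far less than the control, at a log2 ratio of -0.95 ± 0.13 (adjusted p = 3.36e-11) and -0.52 ± 0.13 against the median gene (adjusted p = 0.00273). TRIM16 has a close copy, TRIM16L, and reads that match both would be lost to a count of unique alignments, so its level is uncertain. TRIM66, a chromatin reader of the TIF1 group, had 2394 normalised reads against 1285 and 1295. The columns again were nearly equal, at -0.89 ± 0.14 (adjusted p = 2.01e-08) and -0.47 ± 0.14 against the median gene (adjusted p = 0.0228).

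TRIM41 had 610 normalised reads in the control column, 353 in column 1 and 353 in column 2. TRIM65, which ubiquitylates the RNA sensor MDA5, had 450 against 248 and 281. Both genes were called lower, at -0.79 ± 0.13 and -0.77 ± 0.13. TRIM44, another TRIM protein without a RING, had 14432 against 8363 and 8688 over a gene of 155 kb with 5 exons, at -0.76 ± 0.15. TRIM56, an antiviral ligase, had 684 against 435 and 421, at -0.68 ± 0.13. In all 6 of these lowest TRIM genes the gap between the dIWS1 columns was small beside their distance from the control.

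TRIM3, an NHL protein mainly known from the brain, stood highest among the TRIM genes with at least 100 control reads. It had 156 normalised reads in the control column, 155 in column 1 and 197 in column 2. Column 1 was level with the control and column 2 was above it, so the log2 ratio was 0.15 ± 0.17 (adjusted p = 0.398), and 0.58 ± 0.17 against the median gene (adjusted p = 0.0131). With the control column entered 2 times the relative call was lost. TRIM62 (241 against 231 and 232) and TRIM35 (499 against 442 and 507) were not called, at -0.06 ± 0.15 and -0.08 ± 0.13. TRIM59, a membrane-anchored member, had 857 against 711 and 827 and was not called (-0.16 ± 0.13).

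The TIF1 genes encode chromatin readers that act as transcriptional coregulators, and 3 of 4 are in the table, all called lower (64.3% of all genes), with a median log2 ratio of -0.50. TRIM24, a partner of nuclear receptors, had 28109 normalised reads in the control column, 18817 in column 1 and 21048 in column 2, at -0.50 ± 0.14 (adjusted p = 0.00135). TRIM33, which works with SMAD proteins and is needed for erythroid gene expression, had 20933 against 14404 and 15991, at -0.46 ± 0.14 (adjusted p = 0.00320). With limma trend the calls of TRIM24 (adjusted p = 0.0519) and TRIM33 (adjusted p = 0.0548) were lost. Per kb of gene span, TRIM24 was the most transcribed of all 79 members, with 217 normalised control reads per kb, and TRIM33 followed with 177. TRIM27, next among the TRIM genes at 135 per kb, had 2823 against 1905 and 2321, at -0.42 ± 0.15 (-0.28 without column 1).

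Of the NHL genes, named for the propeller domain at their end, 3 of 4 are in the table and 1, TRIM2, was called lower, against 64.3% of all genes. TRIM2, which ubiquitylates a neurofilament subunit, is the longest member at 187 kb and had 3671 normalised reads in the control column, 2640 in column 1 and 2801 in column 2, at -0.43 ± 0.15. TRIM32, a muscular dystrophy gene, had 549 against 467 and 523, at -0.15 ± 0.13 (adjusted p = 0.280). The erythroid gene TRIM58, whose protein acts on dynein as red cells lose their nucleus, had 1447 against 1268 and 1187. It was not called (-0.24 ± 0.14, adjusted p = 0.114), and TRIM10 is not among the genes analysed here. TRIM37, a regulator of centriole number with a gene of 140 kb, had 7262 against 4342 and 5230, at -0.61 ± 0.15.

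Of 9 antiviral TRIM genes 5 are in the table and 2 were called lower (64.3% of all genes), with a median log2 ratio of -0.28. TRIM56 is given above. TRIM14, an adaptor of the mitochondrial antiviral complex, had 801 normalised reads in the control column, 680 in column 1 and 618 in column 2, at -0.31 ± 0.13 (adjusted p = 0.0306, and 0.0945 with limma trend). TRIM38 had 1189 against 966 and 994 and missed the threshold (-0.28 ± 0.14, adjusted p = 0.0596). TRIM21, the cytosolic antibody receptor, had 107 against 83.6 and 96.8, at -0.25 ± 0.20. TRIM26 had 737 against 620 and 731, at -0.13 ± 0.13. Both dIWS1 columns lay below the control in all 5, although column 2 of TRIM26 was almost level with it.

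The family medians differed little from each other. The median of the TRIM genes minus that of the RNF genes was -0.01 on the log2 scale, with 0.07 in column 1 and -0.0025 in column 2, and the SD over genes was 0.30 for TRIM and 0.26 for RNF genes. Since genes are not replicates of a treatment and the control is 1 column, this difference was not tested. Summed over each family, the TRIM genes gave log2 ratios of -0.58 in column 1 and -0.44 in column 2 and the RNF genes -0.49 and -0.34, beside -0.50 and -0.38 for all genes. The 3 genes with the most reads, TRIM24, TRIM33 and TRIM44, made up 67.8% of the TRIM sum, while RNF144A, RNF111 and RNF217 made up 26.2% of the RNF sum, so the TRIM sum is mostly a value of those 3 genes.

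**Figure D3:**
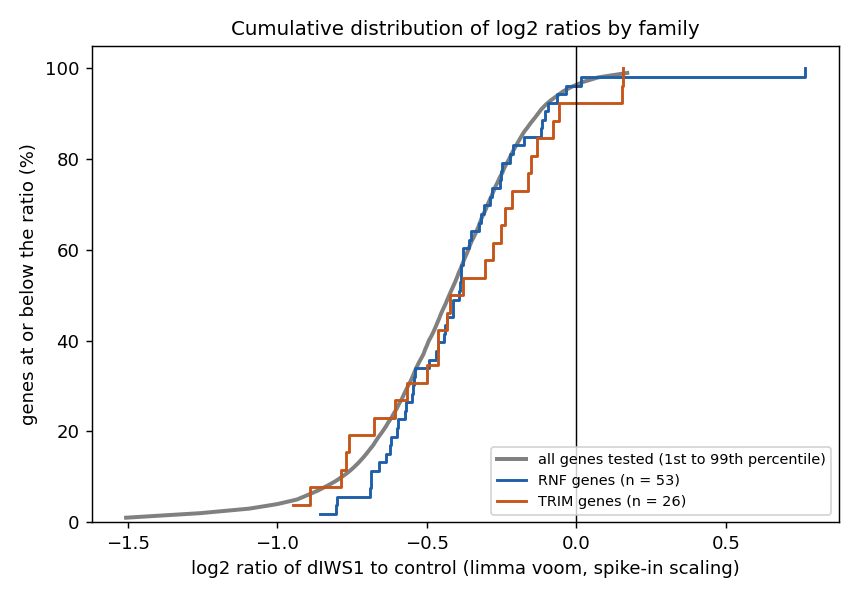
Cumulative share of genes (y axis, %) at or below a given log2 ratio of dIWS1 to control (x axis, spike-in scaling) for RNF genes, TRIM genes and all genes tested. The medians are -0.39 (RNF), -0.40 (TRIM) and -0.43 (all genes), and the lower quartiles -0.57, -0.60 and -0.60. The upper quartiles are -0.25, -0.17 and -0.26, so at that height the TRIM step lies to the right of the grey curve. The RNF step ends at RNF225 (0.76).

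The families also differed in their genes. RNF genes had a median span of 37.2 kb, a median of 8 exons and a median level of 55.4 normalised control reads per kb, and TRIM genes 27.4 kb, 6.5 exons and 40.4 per kb. The G and C content of the gene span was 43.7% and 45.1%. In genes of over 100 kb, all 6 RNF genes (median log2 ratio -0.50) and all 5 TRIM genes (-0.50) were called lower, as were 1326 of the 1493 such genes in the table (-0.55). In genes of 10 kb or less the 11 RNF genes had a median of -0.60 with 7 called lower, where 1413 of 2368 such genes in the table were (-0.49), and the 2 TRIM genes, TRIM21 and TRIM68, had -0.25 and 0.16. Control reads rose with length (median 11120 for the RNF genes over 100 kb and 172 for those up to 10 kb), so the length classes also differ in precision.

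Across the 53 RNF genes the log2 ratio fell by rank with the G and C content of the gene (Spearman's rho -0.41). This rho was -0.34 over 9900 genes and -0.03 across the 26 TRIM genes. Pearson's r with the log2 of that content was weaker for the RNF genes (-0.13) than for all genes (-0.28), and -0.12 for the TRIM genes. Across the TRIM genes the log2 ratio fell with the normalised control reads (rho -0.45), while the values were 0.08 for the RNF genes and 0.09 for all genes. The control column is a part of both measures in this last relation. These correlations are descriptions across genes that share the same 3 columns, and genes are not independent replicates.

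**Figure D4:**
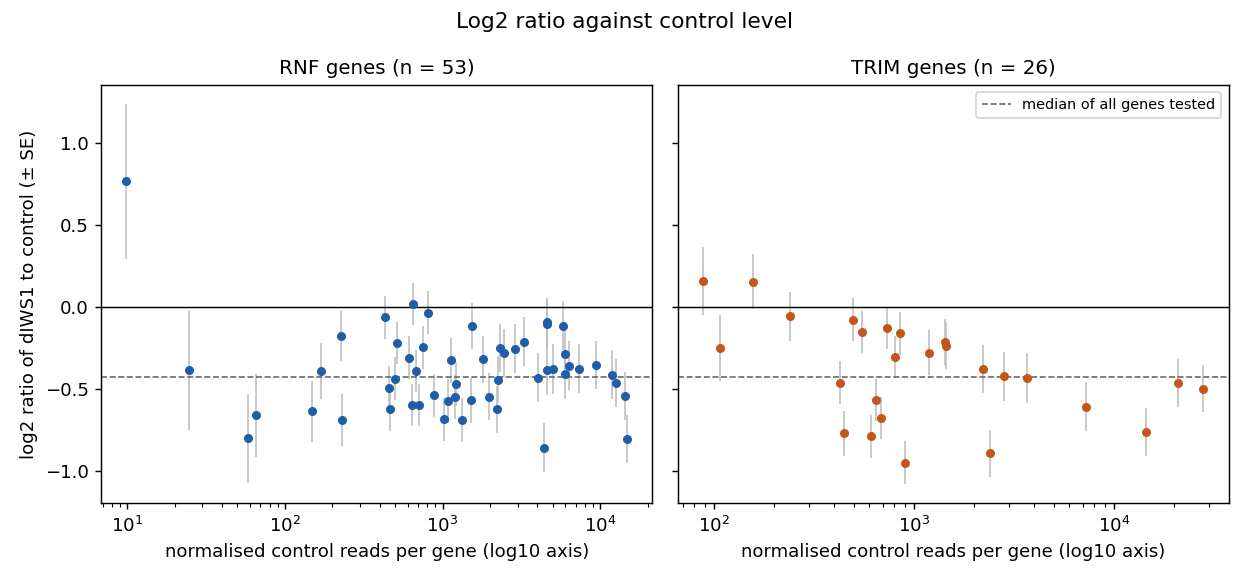
Log2 ratio of dIWS1 to control with its SE (y axis, spike-in scaling) against normalised control reads per gene (x axis, log10) for RNF genes (left) and TRIM genes (right), with the median of all genes as a dashed line. The 5 TRIM genes with the most reads lie between -0.43 and -0.76 and the 2 TRIM genes above 0 had 158 and 89 control reads, while RNF genes of like level spread widely.

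The interferon core was searched, with the other motifs, in the 250 bases before the start of 46 RNF and 21 TRIM genes that have an entry in the promoter table. It was found in 5 TRIM promoters (23.8%) and in 1 RNF promoter (2.17%), against 2.24% of 7898 genes tested and 3.07% of 27305 promoters. The matches are shown with 10 bases on each side because many TRIM genes are known as interferon-induced. They lie at TRIM16 (chr17:15683012-15683041, minus strand), TRIM44 (chr11:35662730-35662759, plus), TRIM2 (chr4:153151936-153151965, plus), TRIM14 (chr9:98119229-98119258, minus) and TRIM26 (chr6:30213581-30213610, minus).
TRIM16: acagaggtaaGAAATAGAAAtaaagggtcc
TRIM44: tcctgacgggGAAAGGGAAAgtggaaccgg
TRIM2: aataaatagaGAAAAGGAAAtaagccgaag
TRIM14: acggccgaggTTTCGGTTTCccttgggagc
TRIM26: tcccgcctgaTTTCAGTTTCcatttcgctg
TRIM26 holds an overlapping second match 6 bases on, and the RNF gene with a match is RNF31. The matches start 26 to 217 bases before the annotated start of these TRIM genes, and that of TRIM16 lies inside the gene span. The 5 TRIM genes had log2 ratios from -0.95 (TRIM16) to -0.13 (TRIM26), so genes with the match lay near both ends of the family. GC boxes were found in 73.9% of RNF and 61.9% of TRIM promoters (68.9% of genes tested), and the ETS motif (CCGGAAG) in 19.6% and 4.76% (18.2%). A CCAAT box stood in 43.5% and 38.1% (36.1%) and a TATA box (TATAAA) in 6.52% and 0% (5.13%).

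Neighbouring members were compared because some RNF and TRIM genes lie close together. There are 8 pairs of members at most 1 Mb apart. RNF125 and RNF138 are 1.07 kb apart on the plus strand of chromosome 18, and neither was called lower (0.02 and -0.09). TRIM41 and TRIM52 are 13.3 kb apart on chromosome 5 on opposite strands and both were called lower (-0.79 and -0.46). RNF19B and TRIM62, 181 kb apart on chromosome 1, had -0.04 and -0.06. TRIM21 and TRIM68, 205 kb apart on chromosome 11, had -0.25 and 0.16. Over the 8 pairs the median distance between log2 ratios was 0.21, beside 0.25 over all 3081 pairs of members, so neighbours were about as far apart in ratio as other members.

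Other genes of ubiquitin conjugation are given beside the 64.3% of all genes that were called lower under the spike-in scaling. The ubiquitin genes UBB and RPS27A were called lower, at -0.60 ± 0.14 and -0.46 ± 0.15. Of the E1 genes UBA6 was called lower (-0.34 ± 0.15). Of 29 E2 genes 18 were called lower, with a median of -0.34, from UBE2J2 (-0.91 ± 0.14) to UBE2D1 (0.12 ± 0.14, not called). Of 27 other RING ligase genes 16 were called lower (median -0.36), ZNRF3 with the lowest ratio at -0.65 ± 0.15. The shares of E2 and RING ligase genes called lower were a little below that of the table. HECT ligases, which carry ubiquitin on their own cysteine, had the lowest median of these lists, -0.53, with 13 of 17 called lower, where 1326 of the 1493 genes over 100 kb were, and UBE3B at -0.93 ± 0.14. The median span of the HECT genes was 130 kb, against 37.2 kb for RNF and 27.4 kb for TRIM genes, and the part of length in their median was not tested.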

How the data were processed

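TT-seq read pairs were aligned by the authors with STAR 2.6.0 to GRCh38 with spike-in sequences, keeping unique alignments, and counted per RefSeq gene by strand. The authors left out overlapping genes and genes at or under an RPK threshold of 10, and fitted DESeq2 with spike-in size factors. The deposited table has no column per library. The deposited signal used here is a pooled mean per gene, taken by the authors over all libraries after spike-in scaling. The deposited log2 fold change was used only to tell the control columns from the dIWS1 columns, which the plan had not foreseen, with its direction read as dIWS1 over control, and the authors' other comparison columns (standard error, Wald statistic, p-values) were not used.

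Each mean was split into whole reads, each worth 1 of 3 steps, which gave 1 solution for 10119 of 10136 genes with a mean above 0 (99.83%). The other 17, with means of at least 35419, were left out, as were 11 genes at 0. Above a mean of 60 the search took only splits with the reads of the dIWS1 columns within 1 log2 unit of each other. It was widened only for means without a solution, so a solution is unique within that search. Of 600 means shifted at random, 6 could be split. A step of 0.495 belongs to the control columns, which hold the same reads, and steps of 0.252 and 0.272 to the dIWS1 columns.

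limma 3.58.1 voom (R 4.3.3) was fitted to the reads of 1 control and 2 dIWS1 columns with spike-in size factors and Benjamini-Hochberg adjustment over all genes. Ratios of single columns used a pseudocount of 0.5 read. Depth per column is given with the results, and p-values rest on the spread between the dIWS1 columns, which limma shares across genes. Alternatives were scaling by total reads, minimum means of 10 and 100, limma trend, the control column entered 2 times, other thresholds, a pseudocount of 5, and each dIWS1 column left out. The control column entered 2 times is a copy without spread and not a replicate. Calls under it show the effect of that layout and are no check on the calls reported.

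Values in every column were given, per family, for the 6 lowest and 6 highest ratios among members with at least 100 control reads, the 3 longest and the 3 most transcribed members, and members of fixed lists by role. Members and lists were chosen with earlier results of these data known. Positions, spans and promoters came from RefSeq (GRCh38.p14), with 78 members found by symbol and RNF219 by synonym, and exons from GENCODE release 44. A few members of the families and lists are counted but not reported by name here.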

Additional observations from a re-analysis of the deposited data

How the results depend on the processing

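Direction depended on the spike-in scaling. Scaling by total reads puts the median gene near 0 (0.0149) by construction, so it cannot show a fall shared by most genes. Scaled by total reads, the median of all genes moved up by 0.44, so that 4 RNF and 4 TRIM genes were called lower and 8 and 4 higher, and 16 members named by rule turned from below 0 to above 0 with a call under at least 1 of the scalings. Their log2 ratios were then 0.0094 (RNF13), 0.0283 (RNF24), 0.0292 (RNF169), 0.063 (RNF4), 0.13 (RNF20), 0.33 (RNF2), 0.34 (RNF19A), 0.35 (RNF138), 0.38 (RNF182), 0.40 (RNF19B), 0.0076 (TRIM2), 0.0159 (TRIM27), 0.13 (TRIM14), 0.28 (TRIM59), 0.31 (TRIM26) and 0.36 (TRIM35). RNF139, given in the text outside that rule, moved to 0.32 and was called higher. Of the other named values, 13 lost their call, 2 gained one and 7 uncalled ones changed sign. With limma trend 11 named values lost their call, and with the control column entered 2 times 2 lost and 3 gained one. A minimum change of 0.5 left 18 RNF and 8 TRIM genes lower, by its construction. RNF225, with 10 control reads, was the 1 RNF gene called higher by limma trend and with the control column entered 2 times, and the cause was not tested.

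Calls relative to the median gene were few and moved with most settings. RNF genes called lower, 1 as reported, numbered 0 with a minimum mean of 10, limma trend, a threshold of 0.01 or a minimum change of 0.5, 2 at a threshold of 0.1, and 5 with the control column entered 2 times. RNF genes called higher, 2 as reported, numbered 1 with limma trend and 0 with a threshold of 0.01 or a minimum change of 0.5. The 1 gene with limma trend was neither RNF19B nor RNF125. They numbered 3 with a minimum mean of 10, a threshold of 0.1 or the control column entered 2 times. TRIM genes called lower, 2 as reported, numbered 1 with limma trend, a threshold of 0.01 or a minimum change of 0.5, 4 at a threshold of 0.1 and 6 with the control column entered 2 times. TRIM genes called higher, 1 as reported, numbered 0 with limma trend or a threshold of 0.01, 2 with the control column entered 2 times and 3 at a threshold of 0.1. Thresholds change the counts by construction. The copied control column changes the p-values by construction, since it adds a column without spread. The causes of the other changes were not tested.

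With 1 dIWS1 column left out, the difference of the family medians ran from -0.0025 to 0.0672, and no named member with a call changed sign. These are values with no test, since no residual degrees of freedom are left. No paired analysis was possible because the recovered columns carry no replicate numbers. RNF225, with 10 control reads, had an SE of 0.47, and the control had 1 column for all genes.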

Other observations

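Beside the members, 4 antisense or divergent RNAs named after them are in the table, and counting by strand keeps them apart from their partners. RNF139-AS1, a divergent transcript of RNF139 on chromosome 8, had 859 normalised reads in the control column, 580 in column 1 and 599 in column 2 and was called lower (-0.54 ± 0.13, adjusted p = 0.000156). RNF139 itself, which starts close by on the other strand, was not called at -0.12 ± 0.14, and the difference between the pair was not tested. RNF144A-AS1 had 185 normalised reads against 116 and 107 and was called lower (-0.73 ± 0.17), as was RNF144A (-0.80 ± 0.15). RNF217-AS1 had 402 against 269 and 269 (-0.58 ± 0.14), beside RNF217 at -0.46 ± 0.15. TRIM52-AS1 had 134 against 79.5 and 79.4 (-0.75 ± 0.19), beside TRIM52 at -0.46 ± 0.13. All 4 of these RNAs were called lower, as were 64.3% of all genes tested. These pairs were looked at after the values were seen.

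RNF216P1, a transcribed pseudogene of the RBR ligase gene RNF216, had 2162 normalised reads in the control column, 1572 in column 1 and 1743 in column 2 and was called lower (-0.38 ± 0.14, adjusted p = 0.0149). RNF216 is not among the genes analysed here, and reads that match gene and pseudogene alike would not be counted, so this level is uncertain.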
